A study of Mus musculus and Homo sapiens with 33 samples.

Results

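The MYC, MAX and MXD network was followed as 10 genes of an RNA-seq count table. The cells, named KPL, are a lung adenocarcinoma line of the mouse. The members were chosen by gene symbol (Myc, Mycn, Mycl, Max, Mxd1, Mxd3, Mxd4, Mxi1, Mnt and Mlx), each symbol matched 1 of 38924 gene IDs, and all 10 were among the 13355 genes with enough reads to be tested. There were 3 libraries of polyadenylated RNA from KPL cells given 4-hydroxytamoxifen (4-OHT, 72 hours, a dose written as 10 nm in the labels), a treatment stated to delete Lin9, whose product belongs to the core of MuvB, a regulator of cell cycle genes. There were 3 libraries of KPL cells without 4-OHT, named EtOH (ethanol) in the sample descriptions. The labels do not say that the 3 libraries of a group came from separate cultures, so the spread between them may be technical. No library shows 4-OHT in KPL cells that keep Lin9, so an effect of the compound and an effect of Lin9 loss cannot be told apart. The 27 ChIP-seq samples of the series were not analysed here.

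MYC proteins (MYC, MYCN, MYCL) are transcription factors with a basic helix-loop-helix leucine zipper. They bind DNA only as heterodimers with MAX, mostly at the E-box CACGTG, and raise transcription of genes of growth, ribosome production and metabolism. The MXD proteins (MXD1, MXD3, MXD4 and MXI1) and MNT compete for MAX, bind the same E-boxes and recruit the SIN3 corepressor with its histone deacetylases. MLX can take the place of MAX as partner of MXD1, MXD4 and MNT, and it is the partner of the glucose-sensing factors MLXIP and MLXIPL. In lung adenocarcinoma MYC is a well known downstream effector of RAS signalling. MXD3 stands apart in its family in that its RNA has been described in proliferating cells in S phase, whereas the other MXD genes are best known from cells that leave the cycle.

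The promoter stretches are shown first because the E-box is the site that the network's proteins bind, and some of the members carry it themselves. RefSeq windows of GRCm38.p6, from 250 bases before to 50 after an annotated start site, were found for 9 of the 10 members. The E-box CACGTG, the same on both strands, stood in a window of 4 of these 9, Max, Mlx, Mxd4 and Mnt, while 7.15% of all 32851 mouse windows held it. The 9 members had 11 windows, several of them of Mxi1, so a count of genes stands beside a share of windows. The stretches of Max and Mlx lie inside the annotated spans of these genes, and that of Mnt partly so. Each stretch of 30 bases is given 5′ to 3′ on the gene's strand with the E-box in capitals.
Max, chr12:76962234-76962263, minus strand: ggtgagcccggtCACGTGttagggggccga
Mlx, chr11:101087238-101087267, plus strand: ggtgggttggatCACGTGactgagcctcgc
Mxd4, chr5:34187912-34187941, minus strand: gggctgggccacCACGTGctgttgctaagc
Mnt, chr11:74830789-74830818, plus strand: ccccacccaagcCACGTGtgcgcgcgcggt

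Mxd3 was the member that fell after 4-OHT, and its promoter is shown because MuvB acts at promoters of cell cycle genes through the element called CHR and together with E2F factors. The 250 bases before an annotated start site of Mxd3 (chr13:55329732-55329981, minus strand) carry the letters of an E2F site in capitals. This start site lies inside the annotated span of the gene, which reaches to 55329900. Part of the bases shown, with the E2F letters, therefore lies within that span.
Mxd3: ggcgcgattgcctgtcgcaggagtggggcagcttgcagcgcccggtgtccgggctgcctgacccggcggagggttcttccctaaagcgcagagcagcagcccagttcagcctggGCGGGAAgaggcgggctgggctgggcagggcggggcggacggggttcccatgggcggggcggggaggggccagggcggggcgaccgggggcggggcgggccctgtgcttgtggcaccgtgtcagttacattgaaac
The letters TTCCCGC or TTGGCGC, searched on both strands as E2F sites, were found once in the whole Mxd3 window, from position -136 counted back from the start site, where they overlap a GC box. They were also found in the Mycn window, and 6.81% of all windows held either. The GC box letters GGGCGG, searched on both strands, occurred 8 times in the Mxd3 window and were found in a window of 7 of the 9 members, and 35.7% of all windows held at least 1. The CHR letters TTTGAA or TTCGAA were not in the Mxd3 window on either strand, they were in the Mycn window at -14, and 19.2% of all windows held them. Members are counted here by gene and the background by window, so the shares differ in unit. A match of letters is a description of the window and not a measured site.

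Lin9 itself was at 18.31, 18.05 and 17.14 CPM in the 4-OHT libraries, against 26.70, 21.29 and 27.25 CPM in the EtOH libraries (CPM, the usual per-library scaling of read counts, here on TMM-adjusted library sizes). The groups did not overlap, as in 12.2% of all genes tested in this direction. The whole-gene count of the 4-OHT libraries stood at 71.1% of EtOH (edgeR adjusted p = 0.0011, and 0.261 for a change beyond 1.2-fold). The 6 libraries held 5859826 to 5913942 counted reads, and 691 genes were lower and 616 higher after 4-OHT at an adjusted p under 0.05. Of 5 epithelial markers 2 fell, while 5.17% of all genes tested were called lower. Epcam fell to 76.7% (edgeR adjusted p = 4.44e-12) and Cdh1 to 90.8% of EtOH (edgeR adjusted p = 0.00105). The keratin genes Krt8, Krt18 and Krt19 did not pass. The 5 summed to 5459 to 5613 CPM in 4-OHT and 5480 to 5555 CPM in EtOH libraries, mostly keratin reads. Fibroblast, endothelial and leukocyte markers each summed to at most 10.6 CPM in any library. The 7 alveolar type 2 markers summed to 70.2 to 76.9 CPM in 4-OHT and 73.5 to 78.4 CPM in EtOH libraries, most of it Abca3 (58.9 CPM in 4-OHT and 60.2 CPM in EtOH libraries on average). Sftpa1, Sftpc and Napsa had no read, Sftpb had 2 reads in 4-OHT and 1 in EtOH libraries, and Lamp3 averaged 9.20 CPM in 4-OHT and 8.86 CPM in EtOH libraries. Nkx2-1 averaged 4.74 CPM in 4-OHT and 6.51 CPM in EtOH libraries and did not pass (edgeR adjusted p = 0.198). Its groups did not overlap, as in 12.2% of all genes tested in this direction. The part of these markers in the results was not tested.

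Of the 10 members, 1 fell after 4-OHT, 0 rose and 9 did not pass the test (quasi-likelihood test of edgeR, with p adjusted over all genes tested and a threshold of 0.05). Mxd3 was at 47.9% of its EtOH level, and the MYC genes, Max, Mlx and the other antagonists were not called in either direction. The 4-OHT and EtOH values did not overlap in 1 member, Mxd3, and in 24.3% of all genes tested, 12.2% lower and 12.1% higher. Among all genes tested 9.79% were called, 5.17% lower and 4.61% higher, so 1 call among 10 genes is close to the background share. The median log2 fold change of the 10 members was 0.0035, against 0.0005 over all genes tested, and the median size of the change was 0.08 among members and 0.10 among all genes. With unadjusted p under 0.05, a level that 21.2% of all genes reached, the members were Mxd3 and Mxi1.

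**Figure D1:**
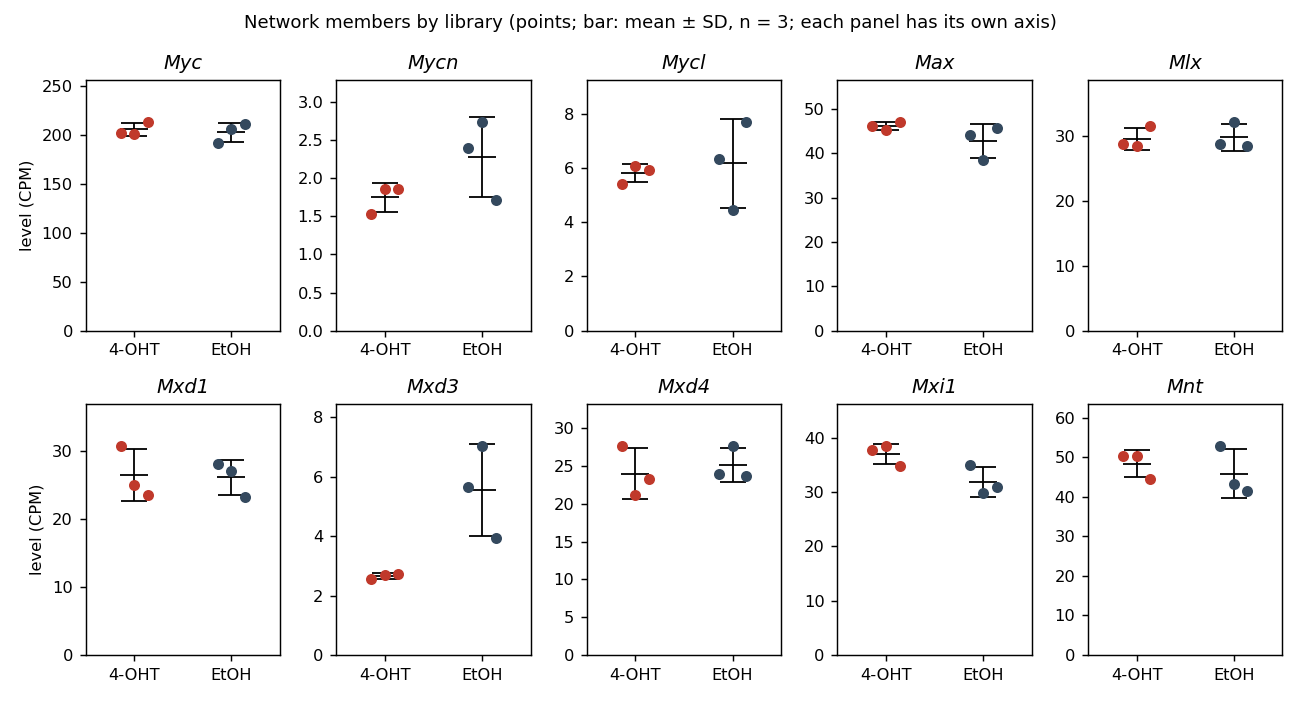
Level of each member in CPM, with a separate vertical axis from 0 for each gene; points are libraries (4-OHT red, EtOH dark), horizontal bars the mean and error bars the SD (n = 3 each). The 3 Mxd3 points of 4-OHT lie between 2.54 and 2.72 CPM, below all 3 EtOH points, and in the other 9 panels the groups overlap.

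Myc, the member of the family best known as an oncogene in solid tumours (ENSMUSG00000022346, GRCm38.p6 chromosome 15, 61985341 to 61990361), was counted at 1191, 1195 and 1260 reads in 4-OHT and at 1122, 1199 and 1231 reads in EtOH libraries. The ranges overlapped. Its level was 205.8 ± 6.97 CPM in 4-OHT and 203.0 ± 9.81 CPM in EtOH libraries (SD, n = 3 each), and the log2 fold change was 0.02 ± 0.04 (SE; edgeR adjusted p = 0.857). The 95% interval of the ratio ran from 0.957 to 1.07.

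Mycn (ENSMUSG00000037169, chromosome 12, 12936093 to 12941836), best known from neural tumours and development, had 9, 11 and 11 reads in 4-OHT and 14, 16 and 10 reads in EtOH libraries. The groups overlapped, and with so few reads the log2 fold change was -0.39 ± 0.36 (SE; edgeR adjusted p = 0.604). Its 95% interval ran from -1.09 to 0.32, so a fall of Mycn by 2-fold could not be told from no change at this depth. Mycl (ENSMUSG00000028654, chromosome 4, 122995588 to 123002490), first described in small cell lung cancer, had 32, 36 and 35 reads in 4-OHT and 37, 26 and 45 reads in EtOH libraries. The 4-OHT values lay inside the EtOH range, with a ratio of 0.942 (95% interval 0.705 to 1.26, edgeR adjusted p = 0.881).

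Max (ENSMUSG00000059436, chromosome 12, 76937269 to 76962323), the obligate partner of the MYC proteins, was at 46.1, 45.2 and 47.2 CPM in 4-OHT and at 44.2, 38.5 and 45.8 CPM in EtOH libraries. The lowest 4-OHT value lay just under the highest EtOH value, and the log2 fold change, 0.11 ± 0.08 (SE), did not pass (edgeR adjusted p = 0.459). Mlx (ENSMUSG00000017801, chromosome 11, 101086707 to 101092207), the partner of the glucose-sensing branch, was at 28.8, 28.5 and 31.6 CPM in 4-OHT and at 28.8, 32.3 and 28.5 CPM in EtOH libraries. Its ratio was 0.993 with a 95% interval from 0.871 to 1.13 (edgeR adjusted p = 0.977). The annotated span of Mlx shares 67 bases with Psmc3ip on the other strand, and the use of strand in counting is not given in the sources used here.

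Mxd3 encodes the MXD protein MAD3 (ENSMUSG00000021485, GRCm38.p6 chromosome 13, 55325170 to 55329900, minus strand). It was counted at 15, 16 and 16 reads in 4-OHT libraries, against 33, 41 and 23 reads in EtOH libraries. Every 4-OHT library was below every EtOH library, which is so for 12.2% of all genes tested in this direction. The 3 EtOH libraries differed from each other far more than the 3 4-OHT libraries did, with EtOH replicate 2 the highest and EtOH replicate 3 the lowest of its group. The level was 2.65 ± 0.0949 CPM in 4-OHT and 5.54 ± 1.55 CPM in EtOH libraries (SD, n = 3 each). At 15 to 16 reads per library, counting error alone is larger than the spread seen among the 4-OHT libraries. Their SD therefore understates the uncertainty of the level, and a difference in spread between the groups was not tested. The log2 fold change was -1.06 ± 0.27 (SE; edgeR adjusted p = 0.00256). The 95% interval of the ratio, 0.330 to 0.695, had 47 reads in 4-OHT and 97 reads in EtOH libraries behind it. By size the fall was number 36 among the 691 genes called lower, of which 43 were lower by 2-fold or more.

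In the authors' deposited table Mxd3 had a log2 fold change of -1.06 with an FDR of 0.00108, and no other member passed 0.05 there. The Mxd3 call was lost without EtOH replicate 2 (log2 fold change -0.85, edgeR adjusted p = 0.0614) and in DESeq2 (log2 fold change -1.07, adjusted p = 0.0831), a tool that called 4.29% of the genes it tested. Over the 14 alternatives the adjusted p ran from 0.00109 to 0.0831 and the direction stayed downward in each. The 3′ end of Mxd3 shares 103 annotated bases with Prelid1, a gene on the other strand that was counted at 1254, 1236 and 1354 reads in 4-OHT and at 1314, 1280 and 1270 reads in EtOH libraries. The Prelid1 groups overlapped (log2 fold change -0.03, edgeR adjusted p = 0.804), and how reads of the shared bases were assigned is not given in the sources used here.

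**Figure D2:**
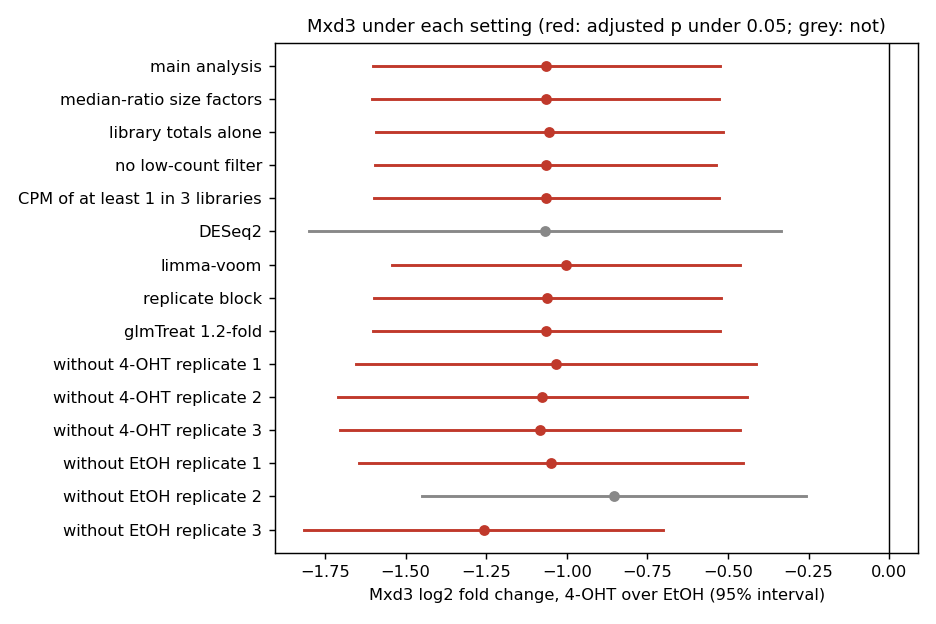
Log2 fold change of Mxd3, 4-OHT over EtOH (horizontal axis), with its 95% interval, in the main analysis and under 14 alternative settings; red marks an adjusted p under 0.05 and grey one above it. All estimates lie between -1.26 and -0.85, and the grey ones are DESeq2 and the fit without EtOH replicate 2.

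The relatives of Mxd3 gave the following values. Mxd1 (ENSMUSG00000001156, chromosome 6, 86647044 to 86669234), the founding MXD gene, was at 30.69, 24.97 and 23.42 CPM in 4-OHT and at 28.07, 26.96 and 23.14 CPM in EtOH libraries. Mxd4 (ENSMUSG00000037235, chromosome 5, 34176580 to 34187710) was at 27.6, 21.1 and 23.3 CPM in 4-OHT and at 24.0, 27.6 and 23.7 CPM in EtOH libraries. Both genes overlapped between the groups, with ratios of 1.01 for Mxd1 (95% interval 0.876 to 1.17, edgeR adjusted p = 0.959) and 0.956 for Mxd4 (0.825 to 1.11, edgeR adjusted p = 0.810).

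Mxi1 (ENSMUSG00000025025, chromosome 19, 53310128 to 53373293), whose product is also called MXD2, was at 37.6, 38.5 and 34.8 CPM in 4-OHT and at 34.9, 29.7 and 30.9 CPM in EtOH libraries. The values were higher in 4-OHT apart from 1 crossing, where the lowest 4-OHT library lay just under the highest EtOH library. Its log2 fold change, 0.22 ± 0.09 (SE), had an unadjusted p of 0.017 and did not pass after adjustment (edgeR adjusted p = 0.118, and 0.0718 at the lowest over the alternatives). The authors' deposited table gives Mxi1 a log2 fold change of 0.21 with an FDR of 0.155. Mnt (ENSMUSG00000000282, chromosome 11, 74830806 to 74845725), an antagonist gene active in most tissues, was at 50.4, 50.4 and 44.5 CPM in 4-OHT and at 52.9, 43.3 and 41.5 CPM in EtOH libraries, which overlap (ratio 1.06, 95% interval 0.946 to 1.18, edgeR adjusted p = 0.651).

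**Figure D3:**
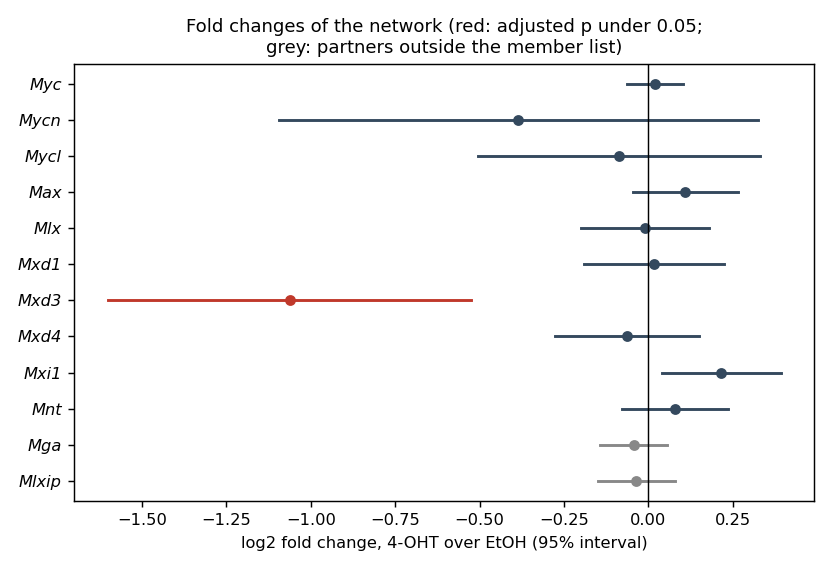
Log2 fold change of each member, 4-OHT over EtOH (horizontal axis), with its 95% interval, and of the MAX partner Mga and the MLX partner Mlxip in grey. Mxd3 at -1.06 is the member in red, the interval of Mxi1 lies above 0 before adjustment, and those of the other 8 members include 0.

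Among the 9 members that did not pass, the 95% interval lay within 1.5-fold of EtOH in both directions for 8, all but Mycn. To ask whether Mxd3 moved differently from its relatives, its reads were set against theirs within each library, which needs no scaling between libraries. Per 100 reads of Mxd1 there were 8.29, 10.8 and 11.6 reads of Mxd3 in 4-OHT libraries, against 20.1, 26.1 and 17.0 in EtOH libraries. Per 100 reads of Mxi1 there were 6.76, 7.02 and 7.80 in 4-OHT libraries, against 16.2, 23.7 and 12.8 in EtOH libraries. The groups did not overlap in either ratio, nor in those to Mxd4 and Mnt. The exact permutation test, two-sided, gave p = 0.1 for each of the 4 comparisons and 0.1 after adjustment over them, which is the smallest p that 3 against 3 libraries allow. In the edgeR fit the log2 fold change of Mxd3 was lower than that of Mxd4 by a difference of -0.999 (95% interval -1.57 to -0.43), the smallest of the 4 differences, and lower than that of Mxi1 by -1.28 (-1.84 to -0.72), the largest. These comparisons were chosen after the values were seen, with Mxd3 as the called member, and the intervals treat the genes as independent. All 4 share the reads of Mxd3, and each relative overlapped between the groups. They therefore restate the fall of Mxd3 and are not separate results.

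Taken as reads, the 5 antagonists Mxd1, Mxd3, Mxd4, Mxi1 and Mnt had 878, 816 and 758 reads in 4-OHT and 850, 784 and 718 reads in EtOH libraries. The 3 MYC genes had 1232, 1242 and 1306 reads in 4-OHT and 1173, 1241 and 1286 reads in EtOH libraries. The quotient of the sums was 0.713, 0.657 and 0.580 in 4-OHT and 0.725, 0.632 and 0.558 in EtOH libraries, and the groups overlapped. In both groups it fell from replicate 1 to replicate 3, and the cause was not tested. Mxd3 made up 1.71% to 2.11% of the antagonist reads in 4-OHT and 3.20% to 5.23% in EtOH libraries. The quotient could therefore hardly show the fall of Mxd3. These sums weight genes by transcript length as well as level, so they compare libraries and not genes.

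The profile of Mxd3 over the 6 libraries was compared with other genes by the root mean square difference of log2 CPM values centred on each gene's mean. The set held 11155 genes, Mxd3 included. It left out genes with predicted-gene, clone-type or pseudogene symbols and genes under a limit of mean CPM. The nearest were Aurka, a mitotic kinase gene (0.193 on the log2 scale), Krt14, a keratin gene of basal epithelium (0.198), Kifc1, which encodes a kinesin of the spindle (0.210), Miip, which encodes an inhibitor of cell migration (0.211), and Cep110, a centrosomal protein gene (0.216). All 5 were lower after 4-OHT, with ratios from 0.461 for Aurka to 0.566 for Cep110, a fall that is built into the choice of genes nearest to Mxd3. Aurka was at 39.0, 42.2 and 40.6 CPM in 4-OHT libraries, against 88.5, 93.6 and 81.9 CPM in EtOH libraries. The measure takes in the difference between the groups as well as the spread within them, and no shared function or control follows from it.

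**Figure D4:**
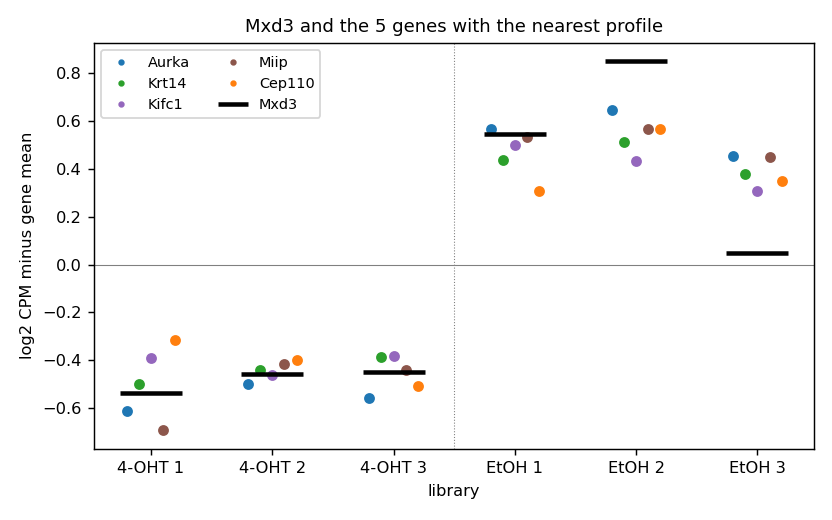
Log2 CPM minus the gene's mean over the 6 libraries (vertical axis) for Mxd3 (black bars) and its 5 nearest genes (coloured points), by library. In 4-OHT libraries Mxd3 lies at -0.54, -0.46 and -0.45, and in EtOH libraries at 0.54, 0.85 and 0.05, where the last falls below all 5 other genes.

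The partners outside the member list gave values close to EtOH. Mga, another MAX partner gene, was at 119.4 ± 5.35 CPM in 4-OHT and 123.1 ± 4.22 CPM in EtOH libraries (SD, n = 3 each), and Mlxip, which encodes MondoA, at 83.0 ± 2.32 CPM in 4-OHT and 85.1 ± 2.18 CPM in EtOH libraries. Both groups overlapped, with edgeR adjusted p of 0.697 for Mga and 0.806 for Mlxip. Mlxipl, which encodes ChREBP, had 5 reads in the 4-OHT and 4 in the EtOH libraries and was not tested. Of the MondoA targets Txnip was listed at 0 in all libraries and Arrdc4 had 31 reads in either group. The cause of the 0 is not known, and a gap in counting or annotation would look the same as a silent gene. Of 9 other E-box factors with the same kind of domain 0 were called in edgeR, against 9.79% of all genes tested. Among 9 genes a count of 0 is close to that share. Srebf2, a regulator of sterol synthesis with the highest CPM of them, had a log2 fold change of 0.08 (edgeR adjusted p = 0.143, unadjusted p = 0.022).

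Of the 16 genes of the SIN3 corepressor, through which MXD proteins and MNT act, 1 fell, 1 rose and 14 did not pass (12.5% called, against 9.79% of all genes; median log2 fold change -0.02). Ing1, which encodes a subunit that reads histone H3 methylation, was at 51.9 ± 0.925 CPM in 4-OHT and 63.3 ± 6.46 CPM in EtOH libraries (SD, n = 3 each; log2 fold change -0.28, edgeR adjusted p = 0.00244). Its call was lost in DESeq2 (adjusted p = 0.0836) and without EtOH replicate 3 (edgeR adjusted p = 0.0754). Arid4b, another subunit gene, had a log2 fold change of 0.18 (edgeR adjusted p = 0.0409), and this call was lost in DESeq2 (adjusted p = 0.370), under the replicate block (0.0512), with limma-voom (0.0509), with no low-count filter (0.0556) and when any library other than 4-OHT replicate 3 was left out (0.0518 to 0.232). Without 4-OHT replicate 3 the list had 2 genes higher.

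Of 22 tested genes of MYC cofactors and MYC turnover, 2 fell, 1 rose and 19 did not pass. So 13.6% were called, against 9.79% of all genes tested, and the median log2 fold change was -0.04. Huwe1, a ubiquitin ligase gene, was at 357.7 ± 23.7 CPM in 4-OHT and 398.5 ± 9.70 CPM in EtOH libraries (SD, n = 3 each; log2 fold change -0.16, edgeR adjusted p = 0.00139). Ruvbl2, which encodes an ATPase of chromatin remodelling complexes, was at 100.4 ± 3.59 CPM in 4-OHT and 116.0 ± 8.31 CPM in EtOH libraries (log2 fold change -0.21, edgeR adjusted p = 0.00379). The Ruvbl2 call was lost without EtOH replicate 2 (edgeR adjusted p = 0.115) and in DESeq2 (adjusted p = 0.0914). Pim1, a kinase gene whose product can phosphorylate MYC, was at 23.4, 20.6 and 18.7 CPM in 4-OHT and at 14.9, 12.5 and 19.5 CPM in EtOH libraries (log2 fold change 0.42, edgeR adjusted p = 0.0214). Its groups overlapped, and the call was lost in DESeq2 (adjusted p = 0.280) and when 4-OHT replicate 1 or 2 or EtOH replicate 1 or 2 was left out (edgeR adjusted p 0.0664 to 0.238). Without 4-OHT replicate 1 the list had 4 genes lower. Fbxw7 was listed at 0 in all libraries, for a cause that is not known, so its absence from the cells is not shown.

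Of 30 genes of ribosome production that MYC is known to raise, 4 fell, 0 rose and 26 did not pass. Here 13.3% were called, against 9.79% of all genes tested, and the median log2 fold change was -0.03. Npm1, which encodes nucleophosmin, was at 502.0 ± 3.50 CPM in 4-OHT and 551.3 ± 4.98 CPM in EtOH libraries (SD, n = 3 each; log2 fold change -0.14, edgeR adjusted p = 0.00141). Utp20 and Rrp12, which encode factors of ribosomal RNA processing, had log2 fold changes of -0.22 (edgeR adjusted p = 0.00125) and -0.19 (edgeR adjusted p = 0.0443). The Utp20 call was lost without 4-OHT replicate 3 (edgeR adjusted p = 0.0537), and that of Rrp12 when 4-OHT replicate 1 or 3 or EtOH replicate 2 or 3 was left out (edgeR adjusted p 0.137 to 0.156). Rrp12 was not called with library totals alone (adjusted p = 0.0600), with no low-count filter (0.0558), with limma-voom (0.0524), under the replicate block (0.0520) or in DESeq2 (0.344). The list had 2 genes lower in DESeq2, with limma-voom and with library totals alone, 1 without 4-OHT replicate 3, and 2 without 4-OHT replicate 1, EtOH replicate 2 or EtOH replicate 3.

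Of 30 tested growth and metabolism genes known as MYC targets, 7 fell, 3 rose and 20 did not pass. The share called was 33.3%, against 9.79% of all genes tested, and the median log2 fold change was -0.09. Calls also depend on read depth, for which the shares were not matched, and Hspd1 was called at a log2 fold change of -0.12. Shmt2, a mitochondrial enzyme of serine and folate metabolism, was at 155.6 ± 2.97 CPM in 4-OHT and 201.6 ± 2.65 CPM in EtOH libraries (SD, n = 3 each; log2 fold change -0.37, edgeR adjusted p = 2.76e-11). Slc1a5, a glutamine transporter gene, was at 85.8 ± 7.16 CPM in 4-OHT and 107.9 ± 5.85 CPM in EtOH libraries (log2 fold change -0.33, edgeR adjusted p = 6.35e-06). Pkm, the pyruvate kinase gene of glycolysis, moved the other way, with 2091 ± 49.3 CPM in 4-OHT and 1894 ± 52.5 CPM in EtOH libraries (log2 fold change 0.14, edgeR adjusted p = 6.5e-05). The count of genes lower was 4 in DESeq2 and 4 without EtOH replicate 1. In a test for a change beyond 1.2-fold, 0 genes of this list were lower and 0 higher. Slc7a5 was listed at 0 in all libraries, again for an unknown cause, so its absence from the cells is not shown.

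Of 10 genes that MYC is known to repress, 2 rose, 2 fell and 6 did not pass. That is 40.0% called, against 9.79% of all genes tested, with a median log2 fold change of -0.05. In a test for a change beyond 1.2-fold, 0 of them were lower and 0 higher. Gadd45g, a stress-response gene, was at 40.0 ± 3.92 CPM in 4-OHT and 29.2 ± 0.892 CPM in EtOH libraries (SD, n = 3 each; log2 fold change 0.45, edgeR adjusted p = 8.6e-05). Ndrg1, a differentiation and hypoxia-response gene, was at 43.6 ± 2.89 CPM in 4-OHT and 35.2 ± 1.604 CPM in EtOH libraries (log2 fold change 0.31, edgeR adjusted p = 0.00582), a call lost in DESeq2 (adjusted p = 0.144). Gadd45a, a relative of Gadd45g, had a log2 fold change of -0.67 (edgeR adjusted p = 0.0130). Its call was lost in DESeq2 (adjusted p = 0.195) and when 4-OHT replicate 1 or 2 or EtOH replicate 1 was left out (edgeR adjusted p 0.0593 to 0.119). The list had 0 genes lower in DESeq2 and when 4-OHT replicate 1 or 2 or EtOH replicate 1 was left out, and 1 with library totals alone, limma-voom, the replicate block or EtOH replicate 2 left out. All of these lists were chosen with earlier results of these data known, so their counts are a description. None of the lists was matched to all genes tested for read depth, on which the share called depends.

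**Figure D5:**
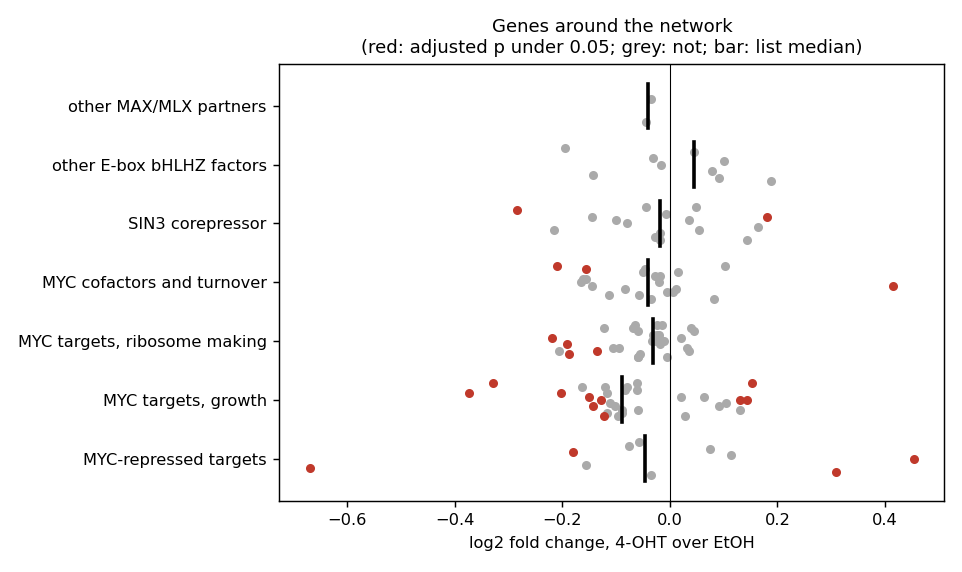
Log2 fold change, 4-OHT over EtOH (horizontal axis), of each tested gene in 7 lists around the network; red marks an adjusted p under 0.05, grey one above it, and the black bar is the list median. The medians lie between -0.09 for growth and metabolism targets and 0.05 for other E-box factors, and the lists of SIN3 genes, MYC cofactors, growth targets and MYC-repressed targets hold red points on both sides of 0.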

How the data were processed

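The authors deposited whole-number read counts per Ensembl gene for 6 RNA-seq libraries, and a comparison table of log2 values (log2 fold change, log2 mean CPM) with a p-value and FDR per gene, per the file headers. Per the submitters' processing notes, edgeR, bedtools 2.26.0, Bowtie2, Bowtie 1.1.2 and TopHat2 2.1.0 were used, in roles that are not stated. The sources used here give neither the counting program nor its strand setting. Repeated lines (27, identical) were kept once. Genes were filtered with filterByExpr (minimum count 10, minimum total 15), scaled by TMM and compared by the robust quasi-likelihood test of edgeR 4.0.16 in R 4.3.3, two-sided, with Benjamini-Hochberg adjustment over 13355 genes. SE and 95% intervals are Wald values of that fit and cover only the spread between libraries and counting error. Replicate libraries varied beyond counting error (chi-square over its degrees of freedom, 1.26 to 1.48), so none was merged. The procedure was tested on simulated counts in which every gene had the same spread beyond counting error (dispersion 0.000663). That test does not cover genes whose libraries vary more. The alternatives were other scalings and filters, DESeq2 1.42.0, limma-voom 3.58.1, a replicate block, a 1.2-fold null hypothesis (glmTreat) and leaving out each library. Named genes were all members, Lin9, the 3 called genes with the smallest p of each list (or the one with the highest CPM), the other MAX and MLX partners and the 5 nearest profiles. Members and lists were chosen with earlier results of these data known. Prelid1, Psmc3ip, single marker genes, genes listed at 0 and the Mxd3 comparisons with relatives were added after values were seen.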

Additional observations from a re-analysis of the deposited data

How the results depend on the processing

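Of 139 results of members under alternatives, 127 kept direction and side of the threshold. Members called lower were 0 in DESeq2 and 0 to 1 when a library was left out, since the Mxd3 call was lost in DESeq2 (log2 fold change -1.07) and without EtOH replicate 2; the range without 1 library was -1.26 to -0.85. Members called higher were 0 under every alternative run. In the main fit 1 member (Mxi1) was higher at an unadjusted p under 0.05 (edgeR), as were 10.7% of all genes tested. Genes called lower and higher were 350 and 174 in DESeq2, 143 and 42 with glmTreat, and 508 to 643 and 403 to 542 without 1 library, the lowest being 403 higher without EtOH replicate 1. Without 1 library the sign of some members that were not called turned, with ranges of -0.018 to 0.049 for Myc, -0.273 to 0.107 for Mycl, -0.106 to 0.0922 for Mxd1, -0.178 to 0.0212 for Mxd4 and -0.0597 to 0.0508 for Mlx; the cause was not tested. Of 322 results of 23 other named genes, 273 were unchanged, 48 lost their call and 1 gained it (Srebf2 without EtOH replicate 2). With glmTreat, which tests for a change beyond 1.2-fold, Mxd3 passed (adjusted p = 0.0327) and 15 of them lost the call, Lin9 and the 14 named genes called in the lists. Same-numbered libraries of the groups did not deviate together (r -0.0259 to 0.00964), and neither did differently numbered ones (r -0.0199 to 0.0286). Replicates varied little beyond counting error, so this check cannot show whether the numbers pair libraries. With the replicate block Mxd3 had a log2 fold change of -1.06 (edgeR adjusted p = 0.0029), and 665 genes were lower and 579 higher. DESeq2 gave Mycn no adjusted p. Depth limits Mycn, Mycl and Mxd3, with at most 108 reads in a group.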
